A study of Mus musculus with 24 samples.

Results

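Interferon-stimulated effector genes are the genes that cells switch on when interferon reaches them, and 48 of them, listed by name, were followed through 24 libraries of mouse microglia. Of the 48, 46 had values among the 15878 genes with values in the deposited table. Mx1 and Mx2 had no identifier in it and are not analysed here. A filter on low counts kept 44 of the 46 among 10219 genes tested, and Oas3 and Helz2 did not pass it. A count in every one of the 24 libraries was found for 24 members. The members were listed by name, but with earlier results of these data known.

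Microglia, the resident macrophages of the brain, were sorted from the brains of wild-type mice on day 28, and their RNA was amplified by Smart-seq2, a full-length cDNA method for small amounts of RNA. The 4 groups held 6 libraries each. Sham mice had the control operation and phosphate-buffered saline (PBS). BCAS mice had the operation known by that short name, bilateral carotid artery stenosis, which lowers blood flow to the forebrain, and also received PBS. The ND-Exos and WD-Exos groups were BCAS mice given the exosomes so labelled, small vesicles that the series title ascribes to foam cells, at 100 µg per tail vein injection every 3 days over the 28 days. All 3 of the latter groups therefore carry the BCAS operation, and no group had the exosomes without it. The labels do not spell out ND and WD, give no age or strain, name no batch and do not say that libraries came from separate mice, so the spread between libraries may in part be technical.

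Type I interferons bind a receptor on the cell surface and, through kinases at that receptor, activate a transcription factor complex with IRF9 in it that binds the interferon-stimulated response element in the promoters of these genes. Interferon gamma acts at a separate element, the gamma-activated site, and is a strong inducer of the guanylate-binding and immunity-related GTPases. In the brain, a subset of microglia with raised interferon-stimulated genes is known from ageing, injury and demyelination.

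The libraries held 24277722 to 28892423 counts, with a count for 8518 to 10802 genes. The microglial genes P2ry12, Tmem119 and Cx3cr1 were high in every group: the P2ry12 group means were 3757 to 6023 CPM, those of Tmem119 1462 to 2245 CPM and those of Cx3cr1 3663 to 4808 CPM. CPM are counts scaled to a common library total with TMM factors, which adjust for differences in composition, and values after ± are SD over 6 libraries. They are not divided by gene length, so levels are compared between groups and not between genes. Of 9 neutrophil markers listed, 4 had values, and these summed to at most 0.832 CPM in any library. The others were blank throughout. The summed oligodendrocyte markers reached 8545 CPM in Sham replicate 4, 5772 CPM in WD-Exos replicate 6 and 4735 CPM in ND-Exos replicate 3. They were at most 1338 CPM in the other libraries. In bulk samples, fewer cells of a type and less RNA per cell cannot be told apart.

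Some, though not all, of the members' promoters held the core of the interferon-stimulated response element. RefSeq promoter windows of assembly GRCm38.p6, from 250 bases before to 50 bases after the transcription start, were found for 37 of the 46 members. No window was found for Ly6e, Rtp4, Oas2, Iigp1, Ifi27l2a, Ifi204, Parp14, Parp9 and Usp18. The core of the interferon-stimulated response element, GAAA followed by any 2 bases and GAAA again, on either strand, was in a window of 20 of the 37 members (54.1%), against 1079 of 27025 genes (3.99%). The core of the gamma-activated site, TTCNNNGAA, which reads the same on both strands, was in 11 of the 37 (29.7%), against 2582 genes (9.55%). All windows printed below hold a match. They belong to Isg15, which had 3 overlapping matches, to Bst2, Slfn8 and Trim30a, and to the GTPase genes Igtp and Gbp7. Bst2, Slfn8 and Trim30a were among the 6 members with the smallest p between the exosome groups, though the Trim30a levels overlapped. Igtp and Gbp7 were not among those 6. Each runs 5′ to 3′ along the gene's strand, and the capitals mark the bases of a match to the response element core on either strand. They lie at chr4:156200769-156201068 (- strand), chr8:71537423-71537722 (- strand), chr11:83020761-83021060 (- strand), chr7:104465144-104465443 (- strand), chr11:58199306-58199605 (+ strand) and chr3:142530086-142530385 (+ strand).
Isg15: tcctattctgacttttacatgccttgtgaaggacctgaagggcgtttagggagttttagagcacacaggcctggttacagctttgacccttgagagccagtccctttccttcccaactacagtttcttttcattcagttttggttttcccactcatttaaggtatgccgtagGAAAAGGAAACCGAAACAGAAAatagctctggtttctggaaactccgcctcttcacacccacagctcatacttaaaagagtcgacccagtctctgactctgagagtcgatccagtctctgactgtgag
Bst2: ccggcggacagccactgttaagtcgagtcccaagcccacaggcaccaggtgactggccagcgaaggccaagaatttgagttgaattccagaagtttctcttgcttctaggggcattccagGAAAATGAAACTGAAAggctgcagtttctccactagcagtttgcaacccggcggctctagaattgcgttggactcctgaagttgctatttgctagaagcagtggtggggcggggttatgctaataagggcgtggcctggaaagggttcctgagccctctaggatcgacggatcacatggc
Slfn8: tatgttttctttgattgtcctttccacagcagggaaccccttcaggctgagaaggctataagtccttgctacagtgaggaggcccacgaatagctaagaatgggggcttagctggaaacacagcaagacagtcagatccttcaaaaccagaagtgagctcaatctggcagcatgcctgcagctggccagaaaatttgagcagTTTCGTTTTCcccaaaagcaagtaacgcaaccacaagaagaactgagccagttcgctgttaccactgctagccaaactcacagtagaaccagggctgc
Trim30a: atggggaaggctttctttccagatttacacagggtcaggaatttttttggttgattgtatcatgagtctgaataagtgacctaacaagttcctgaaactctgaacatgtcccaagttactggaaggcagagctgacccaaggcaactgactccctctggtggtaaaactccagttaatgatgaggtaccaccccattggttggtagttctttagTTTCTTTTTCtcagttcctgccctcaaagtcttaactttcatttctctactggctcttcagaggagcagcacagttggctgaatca
Igtp: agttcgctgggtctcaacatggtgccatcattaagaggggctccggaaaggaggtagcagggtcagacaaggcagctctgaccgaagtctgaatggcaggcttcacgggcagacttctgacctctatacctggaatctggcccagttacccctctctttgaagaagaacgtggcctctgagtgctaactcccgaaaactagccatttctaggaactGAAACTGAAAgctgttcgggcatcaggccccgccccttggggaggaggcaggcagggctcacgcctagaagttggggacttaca
Gbp7: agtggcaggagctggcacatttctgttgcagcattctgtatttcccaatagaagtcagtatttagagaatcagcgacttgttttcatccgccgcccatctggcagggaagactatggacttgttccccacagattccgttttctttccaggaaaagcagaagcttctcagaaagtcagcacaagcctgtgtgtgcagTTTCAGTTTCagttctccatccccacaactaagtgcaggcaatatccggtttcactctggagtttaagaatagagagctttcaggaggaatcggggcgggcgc

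By role, all 5 GTPase genes with a window and all 3 membrane-associated members with one held the response element core, against 1 of 6 regulators and 1 of 5 of the mixed class of other induced genes. Slfn8 and Trim30a each had 2 windows in the table, of which 1 held the match and is printed. Over the 19 tested members with the response element core and the 16 tested members without it, the median log2 fold changes were 0.50 and 0.63 in BCAS against Sham, -0.48 and -0.81 in ND-Exos against BCAS, 0.24 and 0.10 in WD-Exos against BCAS, and 1.07 and 0.79 in WD-Exos against ND-Exos. In the last, 17 of 19 with it and 16 of 16 without it were higher. A match describes these letters and is not a measured site.

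**Figure D1:**
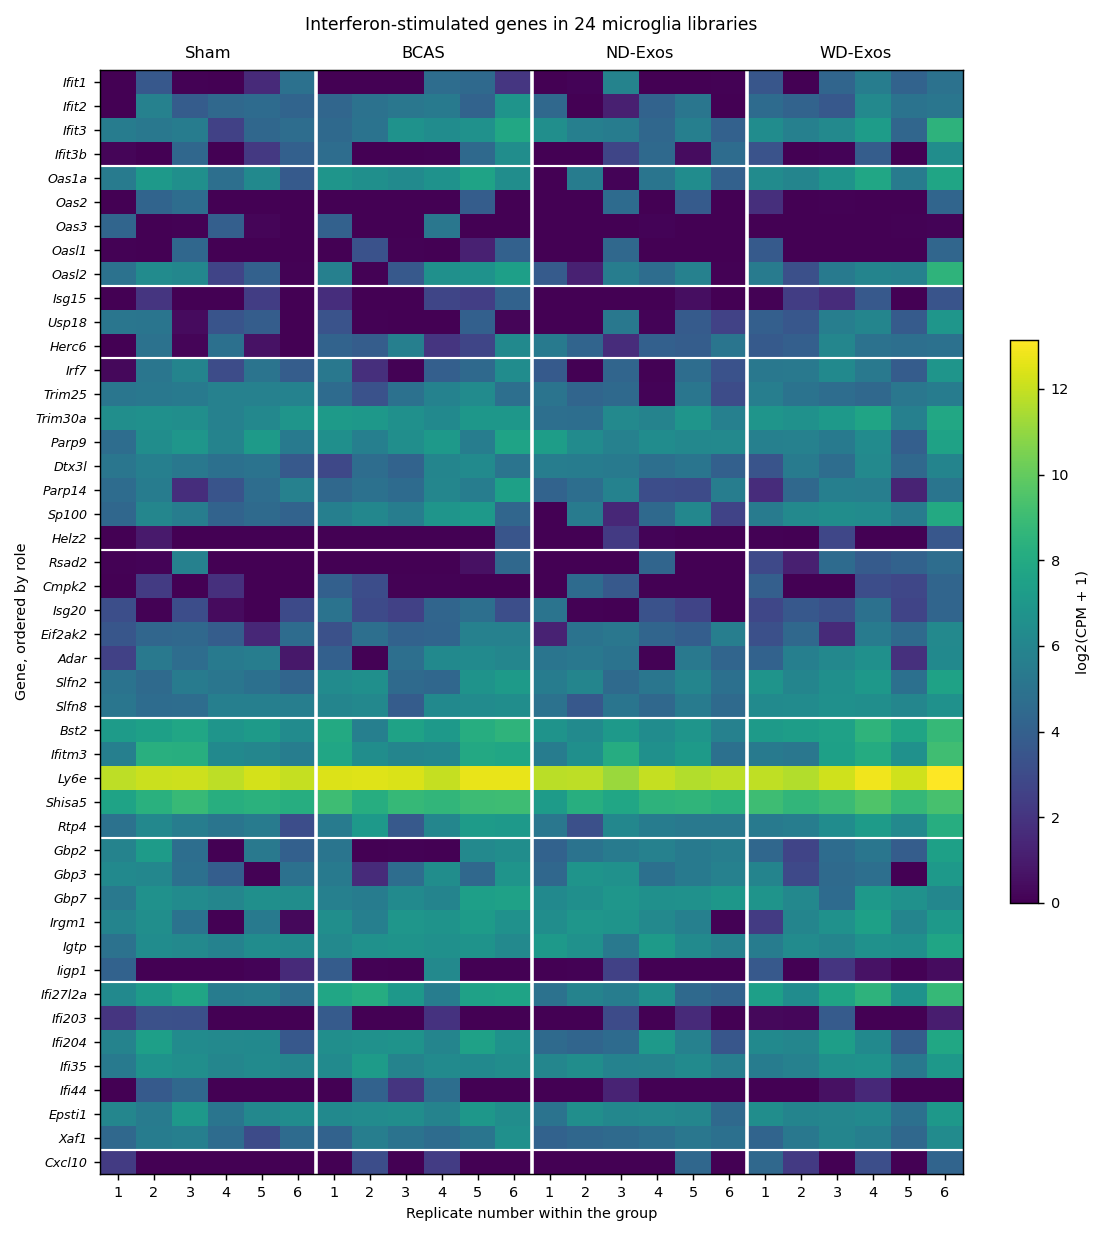
Level of each interferon-stimulated gene with values (rows, ordered by role) in each of the 24 libraries (columns, by group and replicate number), as log2(CPM + 1) by colour. Ly6e is high throughout, many rows hold zeros in several libraries, and WD-Exos replicate 6 is bright down much of its column.

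BCAS against Sham asks what the operation alone did. Most interferon-stimulated genes stood higher by mean in BCAS microglia, but none passed the test: with edgeR's quasi-likelihood test and Benjamini-Hochberg adjustment over all 10219 genes, 0 members were past the threshold of 0.05, as were 0% of all genes. Of the 44 tested, 38 were higher (49.9% of all genes were), and the median log2 fold change was 0.52, against -0.00 over all genes. At an unadjusted p under 0.05 there were 5 members, all higher, where 2.67% of all genes reached that p and were higher. DESeq2 called 193 genes (1.89%) and none of them a member.

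The 5 were Slfn2, Ifit3, Ly6e, Shisa5 and Rtp4. Slfn2, a Schlafen family gene of immune cells, was at 18.2, 30.0 and 42.6 CPM in Sham (lowest, median and highest) and at 20.04, 87.3 and 143 CPM in BCAS. In BCAS, 4 libraries were above every Sham library and replicates 3 and 4 lay within the Sham range. Slfn2 differed by 1.40 on the log2 scale (SE 0.454, adjusted p = 0.376, edgeR). Ifit3, which belongs to a family that binds viral RNA and blocks its translation, was at 4.74, 31.5 and 45.2 CPM in Sham and at 21.2, 90.3 and 235 CPM in BCAS. BCAS replicate 6 held the 235 CPM, and with the groups overlapping the log2 fold change was 1.68 (SE 0.62, adjusted p = 0.441, edgeR), or 1.17 without that library. Rtp4, a chaperone that carries receptors to the cell surface, had means of 38.1 ± 20 CPM in Sham and 88.9 ± 56.4 CPM in BCAS. The ranges overlapped, and edgeR gave a difference of 1.22 (SE 0.564, adjusted p = 0.751). Ly6e, a lipid-anchored surface protein that limits fusion of several viruses, had a difference of 0.44 (SE 0.192), and Shisa5, an endoplasmic reticulum protein, one of 0.50 (SE 0.222).

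The number of members at that unadjusted p rested on single libraries. It was 1 without BCAS replicate 6 (753 of 10492 genes, in either direction) and 2 without Sham replicate 4 (729 of 10448 genes). It was 3 without Sham replicate 1 (681 of 10432), Sham replicate 6 (686 of 10501) or BCAS replicate 5 (706 of 10499). Without Sham replicate 3 it was 8 (677 of 10470). With the 3 libraries richest in oligodendrocyte markers left out it was 3 (685 of 10246). Members above Sham by mean numbered 34 to 40 when any single library was left out. The summed immediate early genes, which also respond to tissue dissociation, were 527 to 17580 CPM in BCAS and 594 to 2637 CPM in Sham, and without BCAS replicate 2 and WD-Exos replicate 2, where they were highest, 39 of 45 tested members were higher, with a median of 0.60.

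Cell type markers differed by mean in the same comparison. All 10 homeostatic microglial genes were higher in BCAS than in Sham (median log2 fold change 0.36). Of these, 4 had an unadjusted p under 0.05, where 2.67% of all genes reached that p and were higher. Lower in BCAS were all 8 tested border macrophage markers (median -1.22), all 7 tested oligodendrocyte markers (median -1.95), all 3 tested endothelial markers (median -3.13) and the 1 tested mural marker. None of these markers passed the edgeR threshold. Their summed levels in Sham and BCAS overlapped for homeostatic genes (40450 to 49330 and 42870 to 60370 CPM), oligodendrocytes (164 to 8545 and 125 to 1338 CPM) and endothelial cells (2.66 to 686 and 0 to 45.0 CPM), and the part of these cells in the members' levels was not tested.

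ND-Exos against BCAS compares BCAS microglia with and without the exosomes labelled ND-Exos. Interferon-stimulated genes stood lower by mean in the ND-Exos libraries, and again none passed the test (0 of 44, with 0.0196% of all genes called). Of the 44, 36 were lower (49.6% of all genes were), and the median log2 fold change was -0.74, against 0.01 over all genes. At an unadjusted p under 0.05 there were 10 members, all lower, where 2.09% of all genes were. They were Ly6e, Ifi27l2a, Slfn8, Bst2, Trim30a, Shisa5, Isg15, Ifi204, Oas1a and Rtp4, with log2 fold changes from -6.08 to -0.63. DESeq2 called 3 members among 141 genes (1.38%): Ly6e (-0.75, adjusted p = 0.00514), Ifi27l2a (-1.99, adjusted p = 0.00303) and Slfn8 (-1.26, adjusted p = 0.0446). For the same 3, edgeR gave 0.577 as the adjusted p.

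WD-Exos against BCAS showed no common direction. Of the 44 tested, 26 were higher (48.9% of all genes were), the median log2 fold change was 0.11 against -0.02 over all genes, and 0 members reached the threshold (0% of all genes) or an unadjusted p under 0.05 (3.71% of all genes did, in either direction). DESeq2 called 0 members among 109 genes (1.07%). This comparison leaned on WD-Exos replicate 6: without it 15 of 44 members were higher and the median was -0.22. Without BCAS replicate 6 in its place, 32 of 44 were higher and the median was 0.33. The 6 members with the smallest p were Usp18, Ifi44, Parp14, Shisa5, Slfn8 and Parp9, and all 6 overlapped between the groups. Usp18 removes ISG15 from proteins and damps the interferon receptor (4.20 ± 6.73 CPM in BCAS, 44.2 ± 41.6 CPM in WD-Exos, log2 fold change 3.39, SE 1.85, adjusted p = 1.0, edgeR). Parp14, an ADP-ribosyltransferase, had means of 59.7 ± 58.1 CPM in BCAS and 26.1 ± 21.7 CPM in WD-Exos. Its log2 fold change was -1.19 (SE 0.802) and -0.51 without BCAS replicate 6, which held 173 CPM.

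WD-Exos against ND-Exos sets the preparations side by side, both on the BCAS background. It shares its ND-Exos libraries with ND-Exos against BCAS and its WD-Exos libraries with WD-Exos against BCAS. Most members stood higher by mean in WD-Exos: 39 of the 44 tested were higher (49.2% of all genes were), with a median log2 fold change of 0.87 against -0.01 over all genes. None was past the edgeR threshold (0.0196% of all genes were), the smallest adjusted p being 0.254. At an unadjusted p under 0.05 there were 13 members, all higher, where 2.91% of all genes were. Every WD-Exos library was above every ND-Exos library for 3 of the 44, Slfn8, Bst2 and Shisa5 (6.82%, against 0.294% of all genes). DESeq2 called 6 members among 124 genes (1.21%), all higher in WD-Exos: Ifi27l2a (2.38, adjusted p = 0.000117), Slfn8 (1.66, adjusted p = 0.00113), Shisa5 (0.90, adjusted p = 0.00605), Bst2 (1.40, adjusted p = 0.0102), Ly6e (0.70, adjusted p = 0.0182) and Trim30a (1.26, adjusted p = 0.0218).

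**Figure D2:**
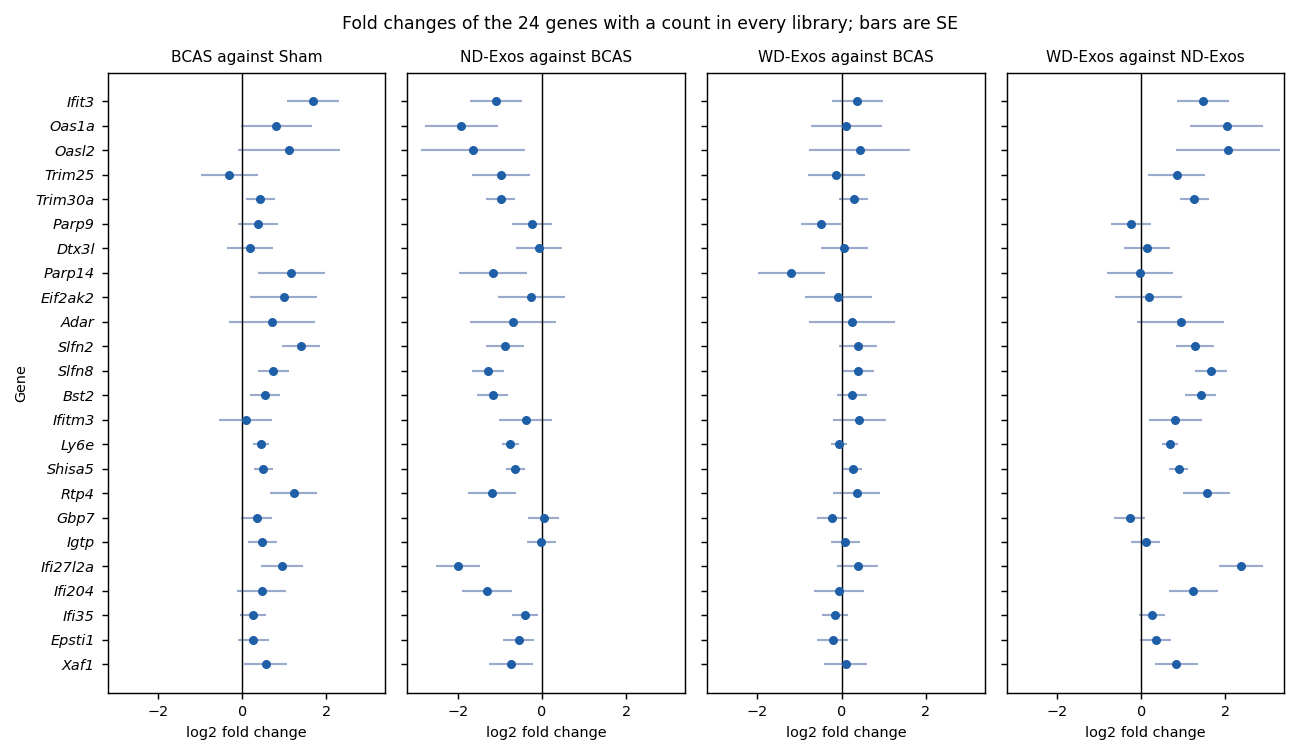
Log2 fold change (horizontal axis) of the 24 interferon-stimulated genes with a count in every library, in each of the 4 comparisons (panels); points are edgeR estimates, bars are SE, and the vertical line is no difference. Slfn8 lies at -1.27 in ND-Exos against BCAS and at 1.66 in WD-Exos against ND-Exos, while the GTPases Gbp7 and Igtp lie near 0 in both.

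Among the members classed as antiviral effectors, all 7 tested were higher by mean in WD-Exos than in ND-Exos (49.2% of all genes were). Their median log2 fold change was 0.93. Slfn8, a Schlafen gene, was at 24.1, 41.1 and 50.8 CPM in Sham (lowest, median and highest), 13.3, 72.2 and 87.1 CPM in BCAS, 11.3, 25.9 and 43.2 CPM in ND-Exos and 65.0, 84.3 and 99.7 CPM in WD-Exos. The 6 WD-Exos libraries lay above all Sham and ND-Exos libraries, and 5 of the 6 BCAS libraries lay above all Sham and ND-Exos libraries too, with BCAS replicate 3 at the low end. The log2 fold change was -1.27 (SE 0.38, adjusted p = 0.577, edgeR) in ND-Exos against BCAS and 1.66 (SE 0.384, adjusted p = 0.299) in WD-Exos against ND-Exos. Slfn2 was at 22.6, 39.9 and 61.9 CPM in ND-Exos and at 27.9, 102 and 191 CPM in WD-Exos, so the groups overlapped (log2 fold change 1.26, SE 0.452, adjusted p = 0.561, edgeR).

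Rsad2, which encodes viperin, an enzyme that makes a chain-terminating nucleotide, had a count in 3 Sham, 2 BCAS, 1 ND-Exos and 6 WD-Exos libraries. Its levels in WD-Exos were 1.26 to 24.8 CPM. Single Sham (54.3 CPM), BCAS (20.8 CPM) and ND-Exos (18.3 CPM) libraries reached values as high, and the log2 fold change in WD-Exos against ND-Exos was 2.22 (SE 2.51). Eif2ak2, the kinase PKR that halts translation on sensing double-stranded RNA, differed little by mean between the 3 BCAS-operated groups (29.6 ± 19.5 CPM in BCAS, 24.8 ± 16.7 CPM in ND-Exos and 28.0 ± 25.9 CPM in WD-Exos). Adar, which edits double-stranded RNA, was at 42.9 ± 33.1, 26.7 ± 14.9 and 50.9 ± 35.4 CPM in the same order. For both genes the SD was large, at 55.7% to 92.6% of the mean in these 3 groups.

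The membrane-associated members block the entry or release of viruses or handle receptors. At an unadjusted p under 0.05 in ND-Exos against BCAS there were 4 of the 5, all lower, where 2.09% of all genes were. All 5 were lower by mean (median -0.75). At that p in WD-Exos against ND-Exos there were again 4, all higher, where 2.91% of all genes were. All 5 were higher by mean there (median 0.89). Both comparisons use the same ND-Exos libraries. Bst2, tetherin, which holds budding virus particles at the cell surface, was at 80.4, 145 and 221 CPM in Sham, 49.7, 220 and 366 CPM in BCAS, 54.2, 95.5 and 135 CPM in ND-Exos and 143, 193 and 452 CPM in WD-Exos. The lowest WD-Exos library lay just above the highest ND-Exos library, while BCAS spanned nearly the whole range. Between the exosome groups the log2 fold change was 1.41 (SE 0.364, adjusted p = 0.299, edgeR) and 1.17 without WD-Exos replicate 6.

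Shisa5 was at 193, 312 and 462 CPM in Sham, 289, 477 and 529 CPM in BCAS, 145, 311 and 392 CPM in ND-Exos and 399, 513 and 743 CPM in WD-Exos. The gap between the highest ND-Exos and the lowest WD-Exos library was narrow, and BCAS overlapped both exosome groups. Between the exosome groups, Shisa5 had a log2 fold change of 0.89 (SE 0.223, adjusted p = 0.299, edgeR). Ly6e, the member with the steadiest levels in Sham, was at 3629, 4173 and 5059 CPM there, 4009, 5667 and 6770 CPM in BCAS, 2292, 3545 and 4101 CPM in ND-Exos and 3152, 4616 and 9008 CPM in WD-Exos. In BCAS, 5 of 6 libraries lay above every ND-Exos library (log2 fold change -0.75, SE 0.193, adjusted p = 0.577, edgeR), and in WD-Exos replicates 4 and 6 stood far above the rest. Against ND-Exos the WD-Exos difference was 0.69 (SE 0.192, adjusted p = 0.322, edgeR), and 0.40 with the 3 oligodendrocyte-rich libraries left out, of which WD-Exos replicate 6 and ND-Exos replicate 3 enter this comparison. Ifitm3, which hinders fusion of virus with endosomes, overlapped in every comparison, with means of 141 ± 127, 149 ± 85.5, 114 ± 89.9 and 198 ± 198 CPM in Sham, BCAS, ND-Exos and WD-Exos.

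**Figure D3:**
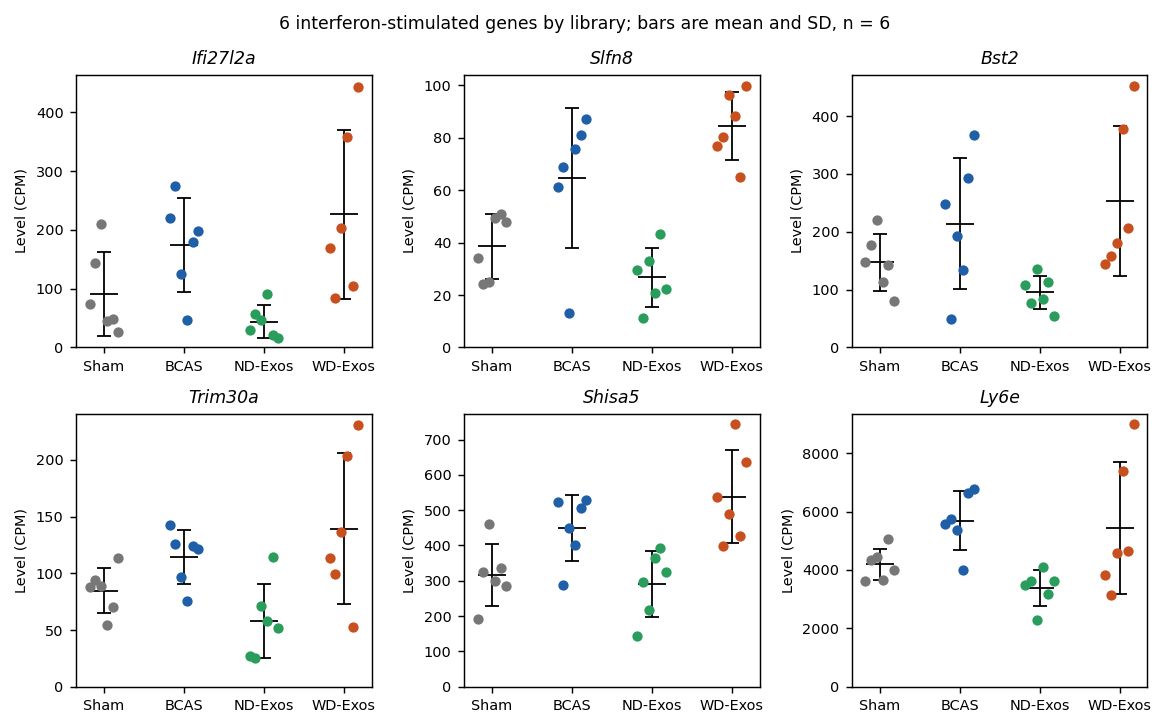
Level in CPM (vertical axis, from 0) of Ifi27l2a, Slfn8, Bst2, Trim30a, Shisa5 and Ly6e in each library by group; points are libraries, and the bars are mean and SD, n = 6. For Slfn8 the lowest WD-Exos library is at 65.0 CPM and the highest ND-Exos library at 43.2 CPM, while for Ly6e the WD-Exos libraries spread from 3152 to 9008 CPM.

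The mixed class of other induced genes had all 7 tested members lower by mean in ND-Exos than in BCAS (median -0.79). All 7 were higher in WD-Exos than in the same ND-Exos libraries (median 0.70). At an unadjusted p under 0.05 there were 2 lower and then 2 higher, where 2.09% and 2.91% of all genes were. Ifi27l2a, a small hydrophobic protein much induced by type I interferon, was at 26.7, 60.6 and 210 CPM in Sham, 46.5, 189 and 275 CPM in BCAS, 16.6, 38.2 and 91.2 CPM in ND-Exos and 83.6, 186 and 443 CPM in WD-Exos. Of the WD-Exos libraries, 5 lay above every ND-Exos library and replicate 2 lay under the highest of them. The log2 fold change was -1.99 (SE 0.512, adjusted p = 0.577, edgeR) in ND-Exos against BCAS and 2.37 (SE 0.519, adjusted p = 0.254) in WD-Exos against ND-Exos, the latter running from 2.08 to 2.73 over 21 alternative settings.

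Ifi204, a sensor of DNA, was at 107 ± 40.2 CPM in BCAS, 43.5 ± 46.1 CPM in ND-Exos and 103 ± 77.5 CPM in WD-Exos. Its transcripts share stretches with Ifi211 and Mndal, so its counts are uncertain. Ifi35 (65.1 to 85.8 CPM by group mean), Epsti1 (57.6 to 84.6 CPM) and the apoptosis-promoting Xaf1 (25.1 to 44.7 CPM) overlapped in every comparison. Ifi44 had a count in 2 Sham, 3 BCAS, 1 ND-Exos and 2 WD-Exos libraries, and Ifi203 in 3, 2, 2 and 4.

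The regulators of the response were all lower by mean in ND-Exos than in BCAS (7 of 7 tested, median -0.98), and 5 of 7 were higher in WD-Exos than in ND-Exos (median 0.84). Trim30a, which restrains Toll-like receptor signalling, was at 54.7, 88.3 and 113 CPM in Sham, 75.5, 123 and 142 CPM in BCAS, 25.8, 55.0 and 114 CPM in ND-Exos and 52.4, 125 and 230 CPM in WD-Exos. The groups overlapped through ND-Exos replicate 5, the highest of its group, and WD-Exos replicate 5, the lowest of its own. The log2 fold change was -0.98 (SE 0.34, adjusted p = 0.577, edgeR) and then 1.26 (SE 0.342, adjusted p = 0.299). Irf7, the transcription factor that amplifies type I interferon production, was at 24.9 ± 22.2 CPM in Sham, 26.6 ± 31.0 CPM in BCAS, 10.8 ± 9.99 CPM in ND-Exos and 53.0 ± 36.6 CPM in WD-Exos. Its libraries overlapped between all groups (log2 fold change 2.30 in WD-Exos against ND-Exos, SE 1.25, adjusted p = 1.0, edgeR).

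Sp100, a component of nuclear bodies, was at 71.7 ± 43.9 CPM in BCAS, 23.3 ± 27.2 CPM in ND-Exos and 96.4 ± 79.8 CPM in WD-Exos, where replicate 6 held 255 CPM. The partners Parp9 and Dtx3l, an ADP-ribosyltransferase and a ubiquitin ligase that work as a complex, stayed within overlapping ranges: Parp9 means ran from 72.1 to 101 CPM and Dtx3l means from 32.0 to 38.2 CPM. Trim25, a ubiquitin ligase that acts on the RNA sensor RIG-I, had its highest mean in Sham (46.1 ± 9.48 CPM) and its lowest in ND-Exos (19.0 ± 13.5 CPM). Helz2, a coactivator with a helicase domain, had a count in 1 Sham, 1 BCAS, 2 ND-Exos and 3 WD-Exos libraries.

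The IFIT genes and the oligoadenylate synthetases, which sense foreign RNA, varied widely between libraries of 1 group. All 4 IFIT genes tested were higher by mean in BCAS than in Sham (median 1.32) and in WD-Exos than in ND-Exos (median 1.21). Only Ifit3 had an unadjusted p under 0.05 in these comparisons (edgeR), where 2.67% and 2.91% of all genes did and were higher. The SE in the same order was 2.18 and 2.2 for Ifit1, 2.15 and 2.11 for Ifit3b, and 1.19 and 1.2 for Ifit2. Ifit3 was at 15.6, 46.9 and 87.8 CPM in ND-Exos and at 19.2, 77.2 and 357 CPM in WD-Exos. Its groups overlapped, with the top value in WD-Exos replicate 6 (log2 fold change 1.46, SE 0.616, adjusted p = 0.772, edgeR). Oas1a was at 12.3, 58.8 and 130 CPM in Sham, 77.7, 97.0 and 194 CPM in BCAS, 0.0357, 24.7 and 81.8 CPM in ND-Exos and 43.9, 93.7 and 215 CPM in WD-Exos. The ND-Exos group held libraries with almost no Oas1a, replicates 1 and 3, and its highest library lay inside the BCAS and WD-Exos ranges. The log2 fold change was -1.91 (SE 0.874, adjusted p = 0.992, edgeR) against BCAS, and that of WD-Exos against ND-Exos was 2.03 (SE 0.877, adjusted p = 0.79).

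Oasl2, a catalytically distinct family member, had means of 33.2 ± 33.3, 71.6 ± 62.8, 23.1 ± 22.7 and 96.8 ± 138 CPM in Sham, BCAS, ND-Exos and WD-Exos. Ifit1 had a count in 4, 3, 3 and 5 libraries of these groups, Oas2 in 2, 1, 2 and 3, Oas3 in 4, 3, 1 and 2, and Oasl1 in 2, 4, 1 and 2. Ifit3 and Ifit3b are 97.8% identical over 1700 bases and Oas1a and Oas1g 97.6% identical over 1861 bases, so the counts of these genes may have been split between copies. The same holds for Slfn8, 96.7% identical to Slfn9 over 725 bases.

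The ISG15 system attaches the ubiquitin-like protein ISG15 to other proteins. Isg15 itself was low: a count was found in 2 Sham, 4 BCAS, 1 ND-Exos and 5 WD-Exos libraries, with highest levels of 4.20, 16.2, 0.398 and 11.7 CPM. The log2 fold changes of -6.08 (SE 2.65, adjusted p = 0.917, edgeR) in ND-Exos against BCAS and 6.03 (SE 2.65, adjusted p = 0.806) in WD-Exos against ND-Exos rest on that single ND-Exos library with a count. Usp18 was at 10.9, 31.2 and 117 CPM in WD-Exos, the only group with a count in all 6 libraries, and at 0, 2.54 and 36.9 CPM in ND-Exos. Its ranges overlapped, with a log2 fold change of 2.28 (SE 1.77, adjusted p = 1.0, edgeR). Herc6, the ligase that attaches ISG15 in mice, had means of 9.63 ± 14.7 CPM in Sham, 27.3 ± 28.6 CPM in BCAS, 20.5 ± 14.0 CPM in ND-Exos and 29.3 ± 18.4 CPM in WD-Exos.

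The GTPases, which attack the vacuoles of intracellular microbes, had the median nearest 0 of the roles with more than 1 member between the exosome groups. Of the 6 tested, 3 were higher and 3 lower in ND-Exos than in BCAS (median 0.01), 4 were higher and 2 lower in WD-Exos than in ND-Exos (median 0.17), and 0 reached an unadjusted p under 0.05 in any comparison. Gbp7 was at 38.5, 82.9 and 98.9 CPM in Sham, 44.2, 68.8 and 185 CPM in BCAS, 74.3, 97.3 and 123 CPM in ND-Exos and 23.4, 83.0 and 132 CPM in WD-Exos. All 4 groups overlapped, and the WD-Exos difference from ND-Exos was -0.28 (SE 0.366). Igtp means were 66.0 ± 20.3, 91.9 ± 15.7, 90.7 ± 41.9 and 97.6 ± 57.1 CPM in Sham, BCAS, ND-Exos and WD-Exos, with a difference of 0.11 (SE 0.341) between the exosome groups. The difference between the GTPases and the other roles was not tested, and both promoters shown above hold the response element core. Irgm1 had means of 36.8 ± 34.2 CPM in Sham and 102 ± 32.6 CPM in BCAS, with 73.0 ± 43.3 CPM in ND-Exos and 89.4 ± 60.6 CPM in WD-Exos.

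Cxcl10, which draws in T cells and is the only chemokine among the members, had a count in 1 Sham, 2 BCAS, 2 ND-Exos and 4 WD-Exos libraries. Its highest level was 20.8 CPM. Its log2 fold changes all had an SE of at least 2.54. These counts do not allow a statement on its direction.

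By group means, WD-Exos was most often the highest group and ND-Exos most often the lowest, each counted on its own. Of the 44 tested members, the highest mean was in WD-Exos for 24, in BCAS for 14, in Sham for 4 and in ND-Exos for 2, and the lowest mean was in ND-Exos for 22, in Sham for 17, in BCAS for 3 and in WD-Exos for 2. Among the 24 with a count in every library, the lowest mean was in ND-Exos for 14 and in Sham for 8. Averaged over the 44 within each library as log2(CPM + 1), the level was 4.17 ± 0.602 in Sham, 4.74 ± 0.585 in BCAS, 3.99 ± 0.433 in ND-Exos and 5.0 ± 0.838 in WD-Exos. The ranges were 3.62 to 5.02, 4.0 to 5.45, 3.48 to 4.52 and 4.09 to 6.33, so the groups overlapped.

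Within groups the members were carried by a few libraries. WD-Exos replicate 6 was the highest of all 24 libraries for 18 of the 44 members and BCAS replicate 6 for 8. Within WD-Exos, replicate 6 was highest for 27 and replicate 4 for 11, and within BCAS, replicate 6 was highest for 20 and replicate 5 for 13. WD-Exos replicate 6 was also 1 of the 3 libraries rich in oligodendrocyte markers, and the part of those cells in its values was not tested. The other 2, Sham replicate 4 and ND-Exos replicate 3, averaged 3.63 and 4.52 over the members, the former near the bottom of its group and the latter at the top. Without these 3 libraries, 36 of 44 members were higher in WD-Exos than in ND-Exos (median 0.77, with 11 at an unadjusted p under 0.05), 37 of 44 were lower in ND-Exos than in BCAS (median -0.82), and 35 of 44 were higher in BCAS than in Sham (median 0.48). Without WD-Exos replicate 6 alone, 32 of 44 were higher in WD-Exos than in ND-Exos (median 0.78), with 8 at an unadjusted p under 0.05. Over all genes, 734 of 10457 reached that p in that fit, and 763 of 10246 in the fit without the 3 libraries.

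**Figure D4:**
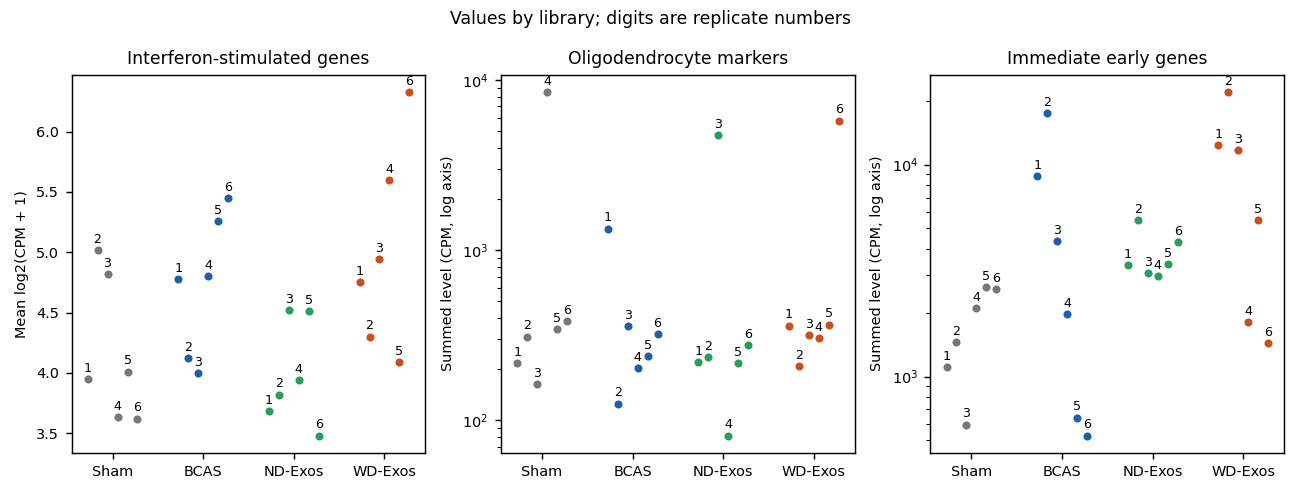
Values by library in the 4 groups, with digits for replicate numbers: the mean log2(CPM + 1) of the 44 tested interferon-stimulated genes, the summed oligodendrocyte markers and the summed immediate early genes (both in CPM on a log axis). WD-Exos replicate 6 is highest in the first panel at 6.33 and stands with Sham replicate 4 and ND-Exos replicate 3 in the second, while BCAS replicates 5 and 6 are high in the first and lowest of their group in the third.

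Other marker sums moved between the groups as well. Dendritic cell markers (Flt3, Zbtb46, Xcr1, Clec9a, Cd209a and Itgae) were low throughout: their sum was 0 to 36.0 CPM in Sham, 0 to 14.8 CPM in BCAS, 15.7 to 45.6 CPM in ND-Exos and 0.0365 to 10.9 CPM in WD-Exos. Every ND-Exos library lay above every BCAS and WD-Exos library and within or beyond the Sham range. In ND-Exos the leading gene was Itgae in 4 libraries and Zbtb46 in replicates 3 and 4, while Flt3 was at most 0.398 CPM there and reached 10.5 CPM in BCAS. Border macrophage markers were at 294 to 1567 CPM in Sham, 73.8 to 595 CPM in BCAS, 234 to 896 CPM in ND-Exos and 137 to 321 CPM in WD-Exos. Immediate early genes were at 2967 to 5495 CPM in ND-Exos and 1438 to 22100 CPM in WD-Exos, where the libraries with the highest levels of the members, replicates 4 and 6, had the lowest sums (1812 and 1438 CPM). The part of these cells and of dissociation in the members' levels was not tested.

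Upstream of the members, transcripts for interferons were not seen. Of 13 interferon genes listed, Ifnb1 alone had values, and it had 0 counts in all 24 libraries. Of the receptors and signalling genes, 16 were tested and 0 passed the edgeR threshold in any comparison: 13 were higher in BCAS than in Sham (median 0.26), 11 were lower in ND-Exos than in BCAS (median -0.11), 9 were higher in WD-Exos than in BCAS (median 0.06), and 12 were higher in WD-Exos than in ND-Exos (median 0.24). Irf9, the DNA-binding part of the complex at the response element, was at 21.7, 79.7 and 89.4 CPM in Sham and at 100.0, 126 and 192 CPM in BCAS, so that every BCAS library lay above every Sham library (0.127% of all genes did so). Its log2 fold change was 0.96 (SE 0.274, adjusted p = 0.36, edgeR). DESeq2 called it (0.97, adjusted p = 0.0214), and over the alternatives the adjusted p ran from 0.0214 to 0.637. Irf8, a lineage factor of microglia, had means of 288 ± 68.1 CPM in ND-Exos and 493 ± 164 CPM in WD-Exos (log2 fold change 0.78, SE 0.212, adjusted p = 0.299, edgeR). DESeq2 called it too (0.79, adjusted p = 0.0282, with alternatives from 0.0282 to 0.642).

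Of the nucleic acid sensors and their adaptors, 19 were tested and 0 passed the edgeR threshold in any comparison. DESeq2 called Tbk1 in ND-Exos against BCAS (log2 fold change 1.21, adjusted p = 0.0154, with alternatives from 0.0154 to 0.999), Trex1 in WD-Exos against ND-Exos (1.37, adjusted p = 0.0147, with alternatives from 0.0147 to 0.642), and Tlr8 in WD-Exos against BCAS (adjusted p = 4.79e-09, with alternatives up to 1.0) and against ND-Exos (adjusted p = 3.43e-11, with alternatives up to 0.733). Tlr8, a sensor of RNA in endosomes, had a count in 1 BCAS library, 3 ND-Exos libraries and 0 WD-Exos libraries, with a highest level of 10.97 CPM among these. By mean 13 were higher in BCAS than in Sham, 13 lower in ND-Exos than in BCAS and 12 higher in WD-Exos than in ND-Exos. Tbk1, the kinase that links the sensors to interferon production, had its lowest mean in BCAS, with means of 62.9 ± 15.3 CPM in Sham, 30.8 ± 13.1 CPM in BCAS, 71.2 ± 27.9 CPM in ND-Exos and 62.9 ± 20.1 CPM in WD-Exos. The BCAS libraries overlapped each of the other groups, and the log2 fold change in BCAS against Sham was -1.03 (SE 0.339, adjusted p = 0.38, edgeR). Trex1, the nuclease that clears DNA from the cytosol, had means of 62.5 ± 30.0 CPM in ND-Exos and 159 ± 96.4 CPM in WD-Exos (log2 fold change 1.35, SE 0.364, adjusted p = 0.299, edgeR), or 0.98 without WD-Exos replicate 6, which held 343 CPM.

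Of 9 further interferon-induced genes outside the effector list, 1 passed the edgeR threshold. Lgals3bp, a secreted glycoprotein that binds galectins, was at 332, 635 and 814 CPM in Sham, 590, 1297 and 1951 CPM in BCAS, 289, 352 and 584 CPM in ND-Exos and 923, 1509 and 3281 CPM in WD-Exos. Every ND-Exos library lay below every BCAS library (0.0881% of all genes did so) and below every WD-Exos library (0.294% of all genes did so). It fell in ND-Exos against BCAS (log2 fold change -1.78, SE 0.296, adjusted p = 0.0115, edgeR) and rose in WD-Exos against ND-Exos (2.18, SE 0.3, adjusted p = 0.000522). The first call was lost with voom (adjusted p = 0.33), without BCAS replicate 5 (0.0599), ND-Exos replicate 1 (0.0626), replicate 2 (0.059) or replicate 6 (0.0693), and when the 3 oligodendrocyte-rich libraries were left out (0.0953). The second held in all 21 alternative settings, with adjusted p from 2.92e-12 to 0.0475. In BCAS against Sham, Lgals3bp overlapped and was not called (log2 fold change 1.105, SE 0.291, adjusted p = 0.356, edgeR). DESeq2 called it there (adjusted p = 0.00602). So did edgeR without BCAS replicate 2 (0.0413) and without the 2 libraries richest in immediate early genes (0.0431). The class I molecule H2-D1 had means of 2429 ± 598, 4154 ± 1692, 2154 ± 279 and 3243 ± 1046 CPM in Sham, BCAS, ND-Exos and WD-Exos, and its log2 fold change in ND-Exos against BCAS was -0.95 (SE 0.232, adjusted p = 0.577, edgeR). With DESeq2 it was called there (adjusted p = 0.00308) and in BCAS against Sham (adjusted p = 0.0281), and the alternatives ran up to 0.999 and 0.626. Of the 9, 8 were higher by mean in BCAS than in Sham, 8 lower in ND-Exos than in BCAS and 9 higher in WD-Exos than in ND-Exos.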

How the data were processed

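RNA of sorted microglia was measured in 24 libraries, 6 in each of 4 groups taken from the labels. The authors deposited unscaled estimated counts by Entrez identifier, and 76.8% of genes held whole numbers in each library. Aligner, counter, genome build and annotation: not given in the sources used here. Of 22064 identifiers, 6186 were blank throughout, and 15828 of the other 15878 matched a RefSeq symbol.

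Rounded counts went into edgeR 4.0.16 (R 4.3.3) with filterByExpr (minimum count 10), TMM scaling, 1 robust quasi-likelihood fit of 24 libraries with 4 group means, and Benjamini-Hochberg adjustment over 10219 genes with a threshold of 0.05. The SE of a log2 fold change is its size divided by the square root of F. Levels are CPM on the TMM scale. Totals of 24277722 to 28892423 counts gave similar depth; reads amplified without molecular identifiers are not independent molecules.

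Alternatives were DESeq2 1.42.0 and its size factors, voom with library weights (limma 3.58.1), no filter, at least 5 CPM in 6 libraries, only the 2 groups compared, the replicate number as a block, and leaving out each library. The fits were tested on simulated data. Leaving out the 3 libraries richest in oligodendrocyte markers and the 2 richest in immediate early genes was chosen after seeing the data. Near-identical transcripts (at least 95% over 300 bases) were sought with blastn 2.17.0 in GENCODE vM21 and found for 11 of the 46 members. Motifs were searched on both strands.

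The members, roles and gene lists were chosen with earlier results of these data known. Named by rule were members past the threshold, the 6 with the smallest p in each comparison, the highest in each role, and 2 genes of each pathway list per comparison; 1 gene this rule picked is not reported here. Other members were added to account for the list, and the dendritic and border macrophage sums were picked after their values were seen. Siglech, which microglia express, was left out of the dendritic sum.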

Additional observations from a re-analysis of the deposited data

Results flagged for a closer look

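Each named member was checked in each group of 6 libraries for a highest or lowest library whose gap to the nearest other exceeded Dixon's 95% critical value as a share of the group's range. Of 72 groups checked, 12 had such a library. The critical value is made for normally distributed values, while several of these groups held mostly zeros, so the number expected by chance is not known.

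In BCAS, replicate 6 stood above the other libraries of its group for Ifit3 (235 CPM) and Parp14 (173 CPM), replicate 5 for Oas1a (194 CPM), and replicate 3 below them for Slfn8 (13.3 CPM). In WD-Exos, Parp9 was high in replicate 6 (191 CPM), Herc6 in replicate 3 (63.6 CPM) and Ifi44 in replicate 4 (1.89 CPM). In ND-Exos, replicate 3 was high for Usp18 (36.9 CPM) and Ifi44 (1.44 CPM), replicate 1 for Parp9 (159 CPM) and replicate 5 for Cxcl10 (19.8 CPM). In Sham, replicate 1 was high for Cxcl10 (3.88 CPM), the single Sham library with a count of that gene.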

How the results depend on the processing

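The log2 fold changes of the named genes kept their direction under every setting that gave a value above or below 0. No member was past the threshold with edgeR or voom under any alternative, including each library left out; DESeq2 called 3 in ND-Exos against BCAS and 6 in WD-Exos against ND-Exos. The cause of that difference between tools was not tested. Genes past the threshold numbered 193, 141, 109 and 124 with DESeq2 and 9, 1, 1 and 4 with voom, for BCAS against Sham, ND-Exos and then WD-Exos compared with BCAS, and the exosome groups compared with each other, where edgeR called 0, 2, 0 and 2. With voom the median of all genes moved to -0.12, 0.04, 0.15 and 0.12, against member medians of 0.61, -0.78, 0.16 and 1.21.

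With only the 2 groups compared, 1 gene was called in WD-Exos against ND-Exos and 3 of 33 members were higher in ND-Exos against BCAS. In WD-Exos against BCAS, 1 member had an unadjusted p under 0.05 with no filter (1704 of 15190 genes did) and with DESeq2 (511 of 10219 genes). It was also 1 with only the 2 groups (170 of 8760 genes) and minus the 3 oligodendrocyte-rich libraries (459 of 10246), and 2 with voom (649 of 10219). Without those 3 libraries, 15 of 44 members were higher there and 1 gene was called in ND-Exos against BCAS. In BCAS against Sham, 3 members then had an unadjusted p under 0.05 (685 of 10246 genes did). Without the 2 libraries richest in immediate early genes, 32 genes were called in BCAS against Sham, and without BCAS replicate 2 alone also 32.

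With each library left out in turn, genes called ran from 0 to 32, 1 to 3, 0 to 0 and 2 to 5 in the 4 comparisons, members with an unadjusted p under 0.05 from 1 to 8, 6 to 12, 0 to 2 and 8 to 15, members higher from 34 to 40, 6 to 12, 15 to 32 and 32 to 41, and member medians from 0.46 to 0.80, -0.88 to -0.52, -0.22 to 0.33 and 0.78 to 1.10. In the same order, all genes at that p numbered 677 to 841, 556 to 734, 419 to 605 and 556 to 738, of 10414 to 10501 tested. Without ND-Exos replicate 6, the members at that p numbered 6 in ND-Exos against BCAS (592 of 10493 genes). They numbered 8 in WD-Exos against ND-Exos (646 of 10493 genes).

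With the replicate number as a block, 0 members and 0, 2, 0 and 2 genes were called, and member medians were 0.53, -0.93, 0.14 and 1.06. Same-numbered libraries did not deviate together (r from -0.0539 to 0.0672 across genes), so the numbers were not taken as pairs. Each library was closest to its own number in at most 1 of 6 pairs. The SE exceeded 1.7 in every comparison for Isg15, Usp18, Ifi44, Cxcl10 and Rsad2, and also for Ifit1, Ifit3b, Oas2, Iigp1 and Ifi203. For Oasl1 and Cmpk2 it was at least 2.39 in the comparisons that include BCAS. These members had no count in several libraries and many in others. Usp18, for example, had a count in 19 libraries and a highest count of 3066, and Ifi203 a count in 11 and a highest of 347.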
